A study of Nothobranchius furzeri with 39 samples.

Results

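Brains of 2-month-old atm mutant killifish were compared with brains of wild type (WT) fish of the same age, across all genes and by gene families. The comparison uses 8 of the 39 samples of the series: every brain labelled as an atm mutant (4) and every brain labelled WT (4) in the 2-month experiment. The turquoise killifish *Nothobranchius furzeri* is a short-lived vertebrate used to study ageing. Each genotype had 2 males and 2 females: atm brains 1 and 2 were female and 3 and 4 male, whereas WT brains 1 and 2 were male and 3 and 4 female. All fish were kept in the same facility and on the same diet, and the labels name neither the allele of the atm mutation nor whether the mutants descend from more than 1 founder. Brains of 4 atm cgas double mutants of the same age (2 males and 2 females) entered the model so that the spread was estimated over 12 libraries. The labels do not state that each sample came from a separate fish, so p-values measure the spread between these samples.

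ATM is a protein kinase that is activated at DNA double-strand breaks and phosphorylates checkpoint, repair and chromatin proteins, among them p53 and CHK2. Loss of the human gene causes ataxia telangiectasia, a disease with cerebellar degeneration, immune deficiency and cancer risk. Neurons have long-lived genomes and rely on excision repair and end joining, and ATM in neurons has also been linked to vesicle traffic, oxidative metabolism and the control of cell cycle proteins.

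PolyA RNA was sequenced and counted per gene. Total counts ran from 18972020 to 39277517 in the 8 brains, and levels are given as CPM, counts per 1000000 counts of the library, after TMM scaling. The summed markers of neurons were even, at 7826 to 8636 CPM in the 8 libraries. Of 5 liver markers tested, fgb and ttr were under 1 CPM in every library (0.283 to 0.611), whereas tfa, apoa1a and apoa2 were not low, and the 5 summed to 1574 to 2360 CPM. Their source was not tested. Tissue that borders the brain differed. The summed pituitary markers (8 genes, among them growth hormone gh1 and prolactin prl) were 1.74 CPM in atm brain 1 and 3.92 CPM in WT brain 1 but 843 to 1473 CPM in the other 6. Skeletal muscle markers reached 1255 and 1079 CPM in WT brains 1 and 2 against 382 to 579 CPM in the other 6. As mean log2 CPM these markers were at 5.95, 4.93, 2.08 and 4.59 in WT brains 1 to 4. In atm brains 1 to 4 the same mean was 2.33, 2.34, 2.98 and 3.87, so that only WT brain 3 lay below the mutants. The median log2 fold change of these markers, atm mutant over WT, was -2.13, with 0 of 9 genes above 0. The part of muscle in the comparison was not tested. Granule cell genes of the cerebellum were low in atm brains 2 and 3 and in WT brain 1: zic1 was at 134, 187 and 208 CPM there and at 396 to 483 CPM in the other 5. On the first principal component of all genes, which held 29.8% of the variance, WT brains 3 and 4 stood apart, with coordinates of 0.592 and 0.547 against -0.395 to 0.049 in the other 6. Both are the WT females, and they had the highest and the second highest total of the 8. atm brain 3 had 33616565 counts against 33628109 in WT brain 4, and its coordinate was -0.237.

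**Figure D1:**
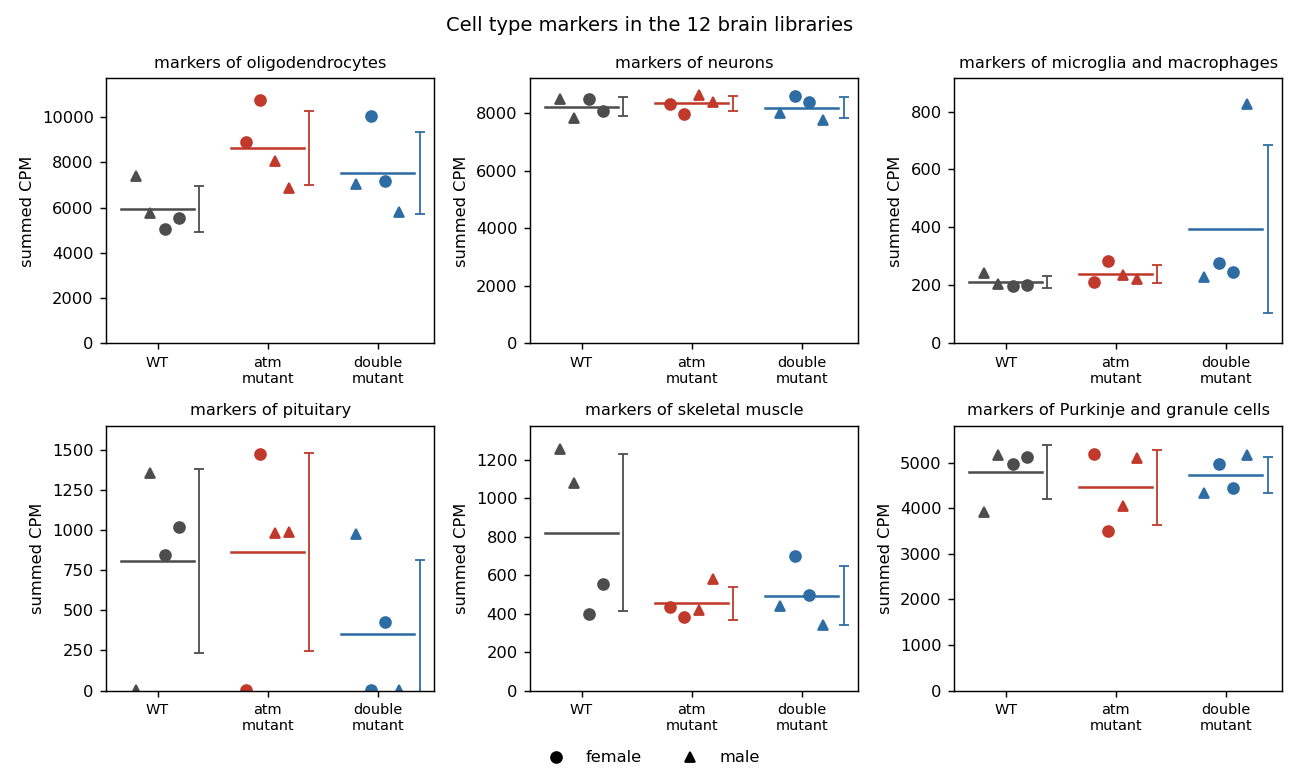
Summed levels (CPM) of the markers of 6 cell types or tissues in the 12 brain libraries. Circles are females and triangles males, lines are group means and bars at the right of each group are SD (n = 4). Oligodendrocyte markers are higher in atm mutants on average, neuronal markers are level, and pituitary markers are near 0 in 1 WT, 1 atm mutant and 2 double mutant brains.

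The mutated gene was examined first. The atm transcript was at 31.3, 37.3, 32.6 and 27.4 CPM in WT brains 1 to 4 and at 22.5, 22.03, 21.5 and 23.6 CPM in atm brains 1 to 4. Every atm mutant brain lay below every WT brain, and the mutants varied less among themselves (SD 0.89 against 4.08 CPM, n = 4 each). An exact permutation test on log2 CPM, two-sided, returned p = 0.0286, the smallest value that 4 libraries against 4 can give. In the quasi-likelihood test of edgeR across all genes, the log2 fold change was -0.52 (SE 0.115) with a Benjamini-Hochberg adjusted p of 0.540. The transcript was present in all 4 mutants, and where the lesion lies in the gene was not analysed here.

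Of 20273 genes tested, 2 passed an adjusted p of 0.05 (0.00987%), rcbtb2 and lpar6a, and both fell in the mutants. The gene lpar6a, listed as LOC107380201, encodes a receptor for lysophosphatidic acid, a lipid messenger that acts through G proteins on cell shape and migration. Its level was 18.2, 21.9, 21.0 and 20.35 CPM in WT brains 1 to 4 and 7.23, 6.19, 5.80 and 5.49 CPM in atm brains 1 to 4. All 4 mutants lay far below all 4 WT brains, in both sexes. The log2 fold change was -1.72 (SE 0.178, edgeR adjusted p = 0.0042), and within sexes it was -1.62 (SE 0.233) in females and -1.83 (SE 0.235) in males.

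The gene rcbtb2 encodes a protein with RCC1 repeats and a BTB domain, a fold by which adaptors bring substrates to cullin ubiquitin ligases. It was at 36.1, 38.8, 42.6 and 42.4 CPM in WT brains and at 21.4, 20.9, 22.7 and 21.0 CPM in atm brains 1 to 4. The 4 mutants were close together and the groups did not overlap. The log2 fold change was -0.89 (SE 0.092, edgeR adjusted p = 0.0042). Without atm brain 3, lpar6a had an adjusted p of 0.0504. Leaving out WT brains 3 and 4 together, both genes had an adjusted p of 0.280 (log2 fold changes -1.66 and -0.75), and leaving out atm brain 1 and WT brain 1, the libraries without pituitary transcripts, both had 0.0568 (-1.91 and -0.95).

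In RefSeq's annotation of NfurGRZ-RIMD1, lpar6a and rcbtb2 lie on chromosome 13 with 1 annotated gene between them, and atm is on the same chromosome. On the far side of lpar6a, nek3, a kinase gene of the NIMA family, had higher values in all 4 mutants (log2 fold change 0.42, SE 0.116, adjusted p = 0.540). fndc3a, which overlaps rcbtb2 in that table, differed by -0.05 (SE 0.0865). Whether reads were assigned by strand is not given in the sources used here, so reads of rcbtb2 and fndc3a could be shared. Next to atm, npat differed by -0.14 (SE 0.102) and bace2 by 0.07 (SE 0.182). Over the whole chromosome, 7.95% of 616 genes tested had groups without overlap, against 2.97 to 6.27% on the other 18 chromosomes and 4.55% of all genes. By an unadjusted p under 0.05 the chromosome did not stand apart, with 10.6% against 5.19 to 10.98% on the others.

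**Figure D2:**
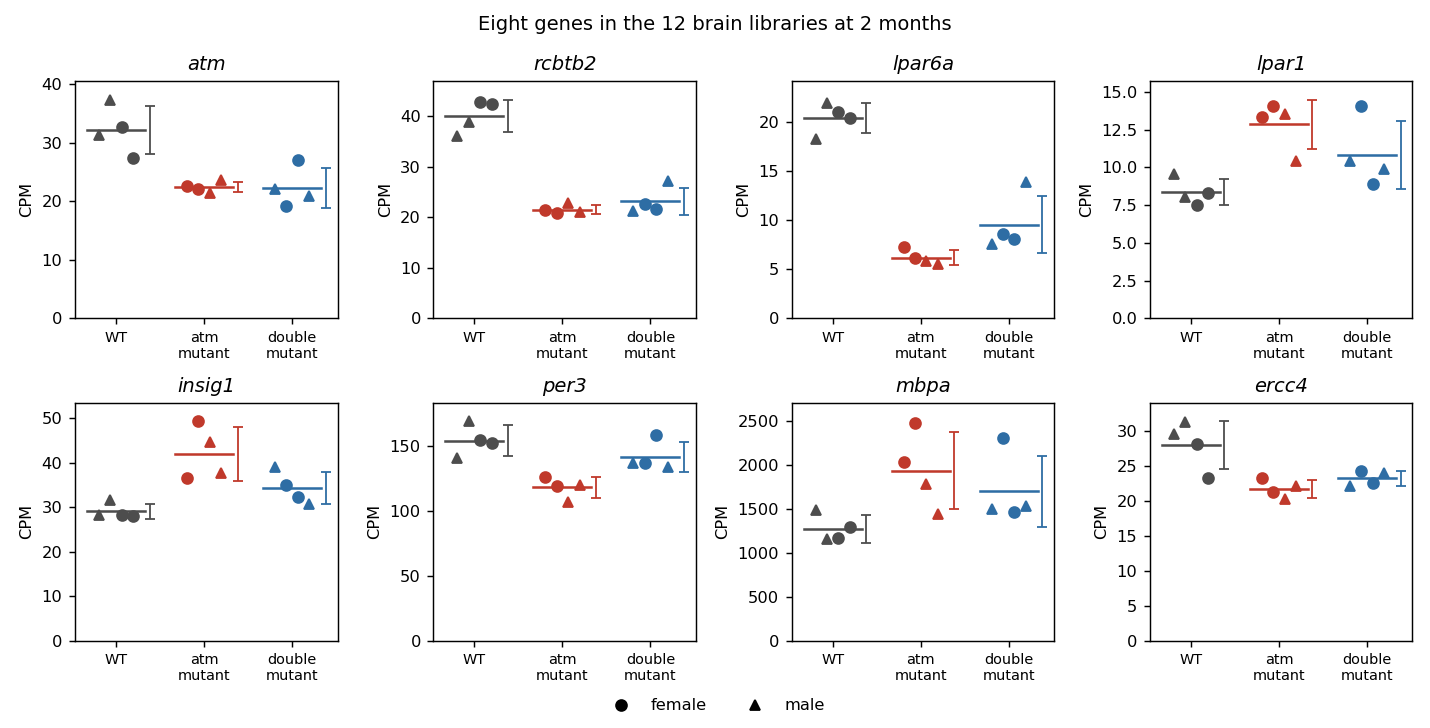
Levels (CPM) of atm, rcbtb2, lpar6a, lpar1, insig1, per3, mbpa and ercc4 in the 12 brain libraries; circles are females, triangles males, lines are group means and bars are SD (n = 4). In atm, rcbtb2, lpar6a, per3 and ercc4 all 4 atm mutant brains lie below all 4 WT brains, and in lpar1 and insig1 all lie above.

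Beyond those 2 genes, differences were spread over many genes and most were small. An unadjusted p under 0.05 was reached by 1783 genes (8.79%), 929 of them higher (4.58%) and 854 lower (4.21%), with a median absolute log2 fold change of 0.33. Of these, 86 higher and 63 lower genes had an absolute log2 fold change over 1. The 4 mutant libraries lay wholly above the WT libraries in 381 genes (1.88%) and wholly below in 541 (2.67%). None of these other genes passed adjustment in this edgeR fit of 12 libraries with both sexes. Apart from lpar6a and rcbtb2, the levels given from here on are those of genes that did not pass in it. Some of them passed in other fits. The counts at unadjusted p are descriptions, to be read against these shares of all genes. Counts of list members called higher or lower are at an unadjusted p under 0.05. Those from fewer libraries or 1 sex are to be read against all genes in the same fit. Without WT brains 3 and 4, 293 genes were higher and 513 lower, and without atm brain 1 and WT brain 1, 844 and 1144. Within females 2305 were higher and 1248 lower (17.5% in all), and within males 455 and 489 (4.66%). DESeq2, run on all 12 libraries, passed 31 genes (0.153%), 20 of them higher.

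Among genes with a symbol, no overlap and a mean log2 CPM of at least 1, the 12 with the smallest p on the higher side had log2 fold changes of 0.34 to 0.87. In order they were gas7b, insig1, sod3, paqr9, pcdhb, ctgf, slc41a1, efna1b, msmo1, ptn, lpar1 and kcnj10a. Of these, sod3 is the extracellular superoxide dismutase, ctgf a matrix-associated growth factor, ptn the growth factor pleiotrophin, efna1b an ephrin ligand of axon guidance, and pcdhb a protocadherin. The actin and membrane binding gene gas7b was at 9.40 to 10.9 CPM in WT and 13.1 to 15.6 CPM in the mutants (log2 fold change 0.48, SE 0.095). The extracellular dismutase sod3 was at 2.89 to 3.73 CPM in WT and 4.41 to 5.88 CPM in the mutants (0.69, SE 0.146). In 11 of these 12 genes the fold was larger in females than in males. On the lower side this held, by size, for 6 of the 12 genes that the same rule named.

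On the lower side, beside rcbtb2, lpar6a and atm, the rule named per3, vit, nr1d2b, kbtbd4, atf5a, nmrk2, csgr06h19orf54, grk7 and wdr91. vit, which encodes the matrix protein vitrin, was at 10.3 to 10.8 CPM in WT and 7.42 to 7.92 CPM in the mutants (log2 fold change -0.46, SE 0.102), a narrow spread in both groups. nmrk2 (LOC107383596, 1 of the genes with this symbol), a nicotinamide riboside kinase of NAD synthesis, had the largest fold of the 9, at 5.05, 3.93, 2.87 and 3.35 CPM in WT and 1.55, 1.98, 1.87 and 2.07 CPM in the mutants (-1.01, SE 0.228). Its human counterpart is a gene of skeletal muscle, and skeletal muscle markers were highest in WT brains 1 and 2, where nmrk2 was also highest; the part of muscle in this difference was not tested. kbtbd4, another cullin adaptor with a BTB domain, was at 32.0 to 34.4 CPM in WT and 24.0 to 27.7 CPM in the mutants (-0.38, SE 0.084).

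**Figure D3:**
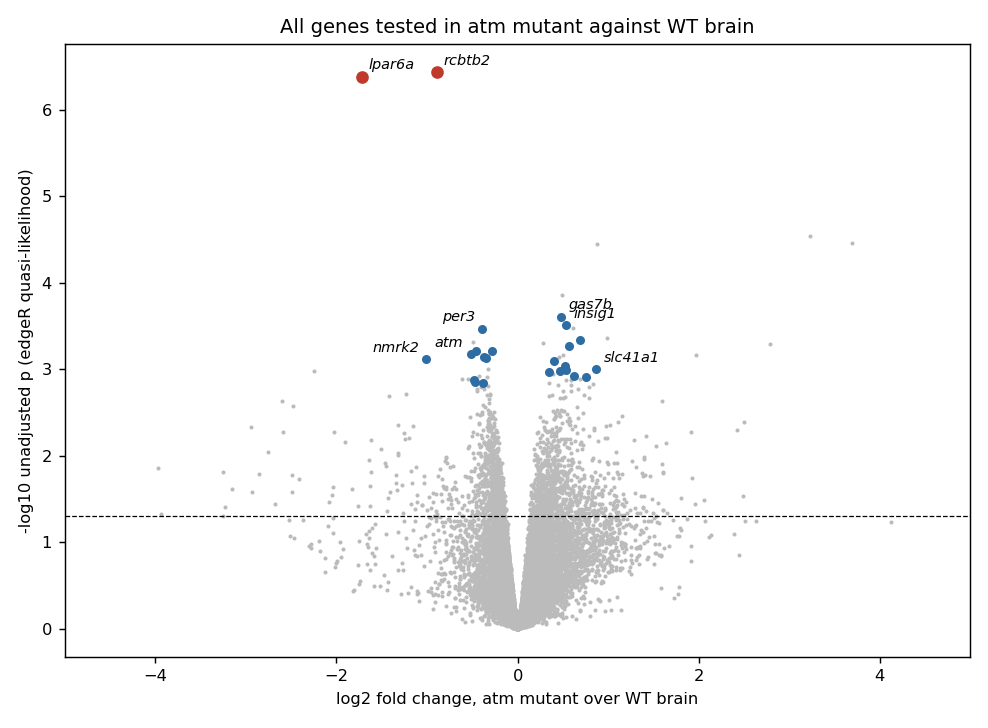
Log2 fold change (atm mutant over WT brain) against -log10 of the unadjusted p for all 20273 genes tested; 2 genes lie outside the x range. Red points are rcbtb2 and lpar6a, which passed adjustment, blue points the other genes named by rule, and the dashed line marks an unadjusted p of 0.05.

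A few genes without a symbol had large folds and passed adjustment in another fit (DESeq2 or the 8 libraries alone). They are named here after their values were seen, and all but LOC107375793 and LOC107392149 had no overlap. LOC107386741, on chromosome 10, was at 0.756, 0.838, 0.826 and 0.784 CPM in WT brains 1 to 4 (16, 16, 32 and 26 counts) and at 6.48, 4.67, 5.71 and 5.54 CPM in atm brains 1 to 4 (138, 92, 192 and 115 counts). The log2 fold change was 2.78 (SE 0.565). With the 12 libraries the adjusted p was 0.540, and with the 8 libraries of the comparison alone it was 0.000242, where 4 of 19701 genes passed (0.0203%), 2 of them higher (0.0102%), LOC107386741 and LOC107381303. In double mutant brain 3 the gene had 19 counts against 97, 217 and 294 in the other double mutants. A second pair, LOC107381302 and LOC107381303, had 1 to 6 and 2 to 5 counts in the WT brains and 12 to 29 and 16 to 51 counts in the mutants. Their log2 fold changes were 3.22 (SE 0.503) and 3.69 (SE 0.588), each with an adjusted p of 0.143, and of 0.176 and 0.0335 with the 8 libraries alone. In DESeq2 both passed, with adjusted p of 0.0016 and 0.0001. Double mutant brain 3 was again the lowest of its group, with 8 and 6 counts. LOC107375793 had 0 counts in all 4 WT brains and in atm brain 2 but 11 to 17 in the other 3 mutants. LOC107392149 was lower, at 1.91 to 17.6 CPM in WT and 0.96 to 2.89 CPM in the mutants. Its log2 fold change was -2.60 (SE 0.643), with an adjusted p of 0.540 in edgeR and 0.0494 in DESeq2.

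DNA damage genes were examined by role. Of 29 sensors and kinases of double-strand breaks, 4 had an unadjusted p under 0.05 (13.8%, against 8.79% of all genes), all lower, while the median was 0.00. They were atm itself, kat5 (the TIP60 acetyltransferase, which activates ATM), chek1 (the kinase CHK1) and atrip (the partner of ATR). The count thus includes the mutated gene. Without WT brains 3 and 4, 0 of the 29 were higher and 1 lower. Within females 0 were higher and 5 lower, and within males 1 and 1. chek1 was at 5.50 to 6.80 CPM in WT and 4.11 to 5.39 CPM in the mutants. Among 39 genes of homologous recombination and the Fanconi pathway, 0 were higher and 3 lower (7.69%), and among 16 end joining genes 0 passed in either direction. p53 targets did not go one way: of 46 tested, 1 was higher (gadd45aa, log2 fold change 0.38) and 2 were lower (mdm4 at -0.18 and bcl6 at -0.25), 6.52% in all, with a median of -0.02 against 0.00 over all genes. Of 92 cell division and replication genes, 0 were higher and 2 lower (2.17%; ccne1 and the gene LOC107374299, which has the symbol e2f3).

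Base, nucleotide excision, mismatch and single-strand break repair showed a lean to lower values. Of 43 genes tested, 6 were lower at an unadjusted p under 0.05 (14%) and 0 higher, 5 lay wholly below WT, and the median was -0.08, with 13 of the 43 above 0. The endonuclease genes of nucleotide excision repair were among them: ercc4 (XPF) was at 29.7, 31.3, 28.1 and 23.3 CPM in WT and 23.2, 21.4, 20.3 and 22.1 CPM in the mutants (log2 fold change -0.37, SE 0.092). ercc5 (XPG) was at 21.7 to 27.5 CPM in WT and 17.9 to 20.9 CPM in the mutants (-0.30, SE 0.106). The helicase ercc2 (XPD) differed by -0.22 and uvssa, which acts when RNA polymerase stalls at a lesion, by -0.31, both with no overlap. Without WT brains 3 and 4, 3 of the 43 had an unadjusted p under 0.05, all lower, and without atm brain 1 and WT brain 1, 5 did, all lower. Within females the median was -0.17 and within males 0.00.

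Several clock genes were lower. Of 35 tested, 9 had an unadjusted p under 0.05 (25.7%), all lower, and 6 lay wholly below WT: per3, per1, nr1d1, nr1d2b, dbpa and ciart. The per genes encode repressors of the core clock, nr1d1 and nr1d2b the REV-ERB receptors that repress bmal1, and dbpa a D-box factor, all of them transcribed through E-boxes. per3 was at 141, 170, 155 and 152 CPM in WT and 126, 119, 107 and 120 CPM in atm brains 1 to 4 (log2 fold change -0.39, SE 0.079). per1 was at 78.0 to 92.4 CPM in WT and 56.7 to 65.0 CPM in the mutants (-0.43, SE 0.123). nr1d1 reached its lowest level, 13.3 CPM, in atm brain 3, against 18.6 to 21.1 CPM in the other mutants and 22.2 to 24.6 CPM in WT.

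Not all clock genes took part: the median of the 35 was -0.06 and 14 were above 0. All 9 had negative log2 fold changes in both sexes, per3 with -0.32 in females and -0.45 in males. Without WT brains 3 and 4, 5 of the 35 were lower at an unadjusted p under 0.05 and 1 higher, and the median was 0.02. Without atm brain 1 and WT brain 1, 11 were lower, and the median was -0.12. The labels give a light cycle but no hour of dissection for each fish, so hour and genotype cannot be told apart here. In the double mutants, which share the WT libraries with this comparison, per3 differed from WT by -0.12 and nr1d2b by -0.08.

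Genes of sterol and fatty acid synthesis leaned to higher values. Of 44 tested, 7 were higher at an unadjusted p under 0.05 and 1 lower (18.2% in all), 6 lay wholly above WT, 35 were above 0, and the median was 0.16. insig1, the sterol sensor of the endoplasmic reticulum whose transcript is a target of SREBP, was at 28.3, 31.6, 28.3 and 27.9 CPM in WT and 36.5, 49.3, 44.7 and 37.6 CPM in the mutants (log2 fold change 0.53, SE 0.108). msmo1, a demethylase of the late sterol pathway, was at 16.2 to 18.6 CPM in WT and 23.1 to 26.8 CPM in the mutants (0.47, SE 0.111). The receptor gene ldlr differed by 0.51, fatty acid synthase fasn by 0.46, cyp51 by 0.43 and dhcr7 by 0.33. The 1 lower member was insig2 (-0.17), which in mammals is not driven by SREBP.

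The median was 0.24 in females and 0.10 in males. Without WT brains 3 and 4 the median was 0.09 and 3 of the 44 were higher at an unadjusted p under 0.05, and without atm brain 1 and WT brain 1 it was 0.21 with 12 higher. In the double mutants the median difference from the same WT libraries was 0.04.

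Myelin genes had the highest median of the 43 lists that are not cell type markers. All 12 members with an unadjusted p under 0.05, of 20 tested (60%), were higher, and the median was 0.44. They include the structural proteins mbpa, mbpb, plp1a, plp1b and mpz, the axon-facing adhesion protein mag, the lipid enzymes fa2h and gal3st1 of galactolipid synthesis, and myrf, the transcription factor of myelinating cells. mbpa was at 1491, 1155, 1165 and 1291 CPM in WT and 2032, 2486, 1788 and 1442 CPM in atm brains 1 to 4 (log2 fold change 0.58, SE 0.166). mag was at 448 to 489 CPM in WT and 520 to 619 CPM in the mutants (0.29, SE 0.092). gal3st1 was at 14.9 to 17.4 CPM in WT and 18.8 to 27.5 CPM in the mutants.

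The mean log2 CPM of the 20 genes was 6.87, 6.60, 6.64 and 6.74 in WT brains 1 to 4 and 7.09, 7.25, 7.01 and 6.89 in atm brains 1 to 4, so that atm brain 4 lay next to WT brain 1. Oligodendrocyte markers gave 10 higher and 0 lower of 19 at an unadjusted p under 0.05; sox10 and olig2, which specify the lineage, are among the 10, and the others are also in the myelin list. In bulk tissue a change in the number of oligodendrocytes and in RNA per oligodendrocyte cannot be told apart. In the myelin list, WT males (6.87 and 6.60) and WT females (6.64 and 6.74) were at similar levels. The atm males (7.01 and 6.89) lay below the atm females (7.09 and 7.25). The difference from WT varied with sex and with the libraries used. It was 0.62 in the median in females and 0.18 in males. Without WT brains 3 and 4, which leaves only the WT males, it was 0.20, with 1 of the 20 genes at an unadjusted p under 0.05. Without atm brain 1 and WT brain 1 it was 0.54, with 15 higher. Of the 19 oligodendrocyte markers, 15 were higher in females (median 0.63) and 0 in males (0.11). Without WT brains 3 and 4, 0 were higher (0.10), and without atm brain 1 and WT brain 1, 15 (0.54). Their mean log2 CPM was 6.39, 6.09, 5.90 and 6.04 in WT brains 1 to 4. In atm brains 1 to 4 it was 6.47, 6.71, 6.41 and 6.21.

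**Figure D4:**
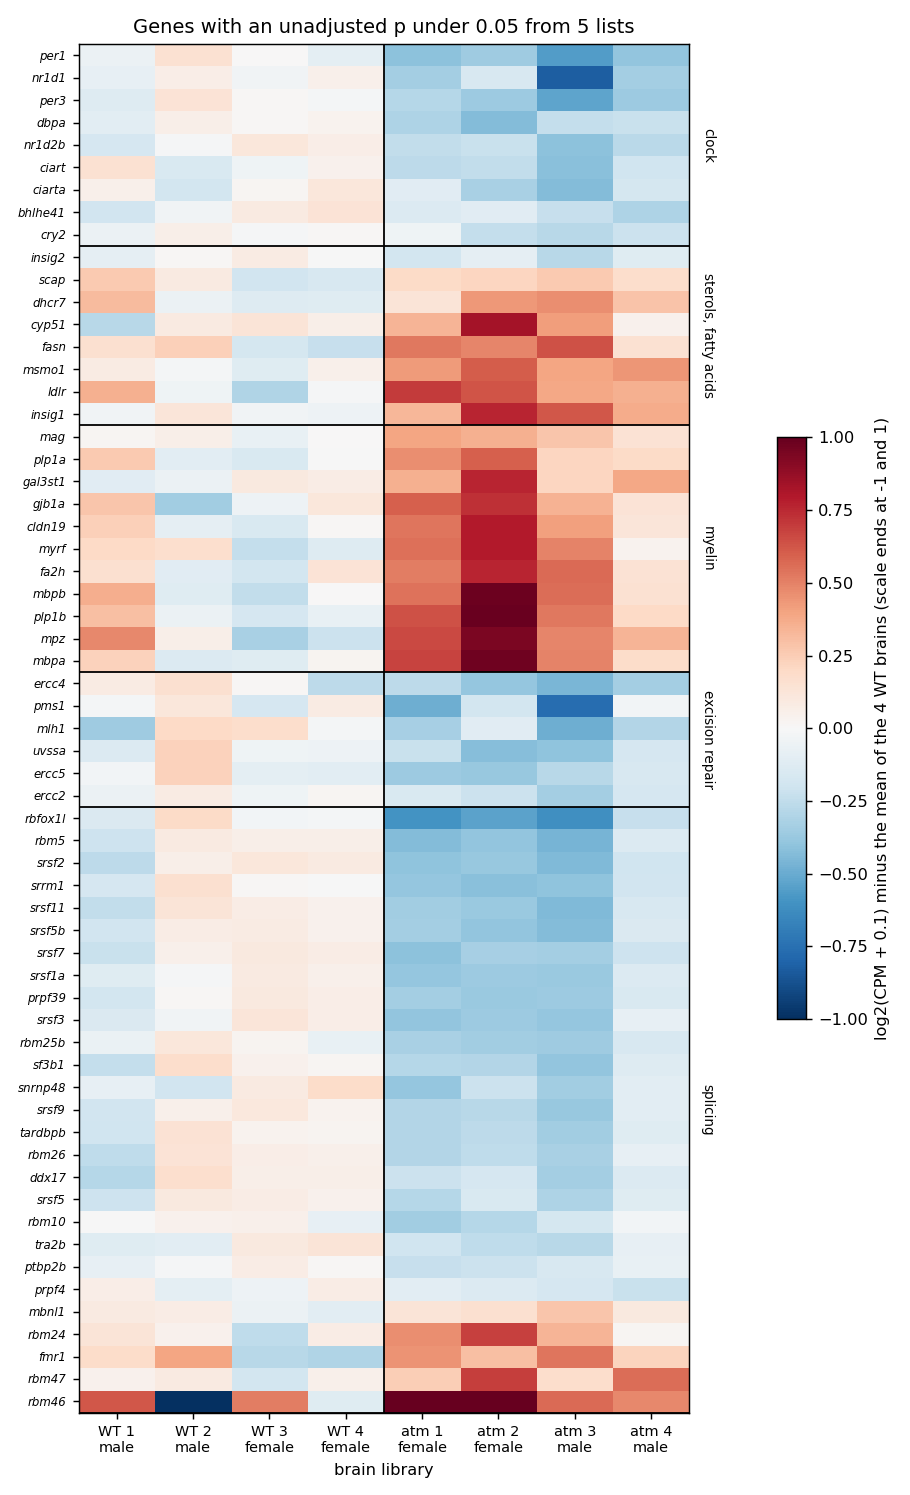
Members of 5 lists with an unadjusted p under 0.05 (1 myelin gene is not shown), as log2(CPM + 0.1) minus the mean of the 4 WT brains, in WT brains 1 to 4 and atm brains 1 to 4; red is higher and blue lower. The clock and excision repair genes are lower in most or all mutant libraries, the sterol (except insig2) and myelin genes higher, and atm brain 4 is mostly the palest of the mutants for myelin and splicing genes.

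Splicing factors leaned to lower values. Of 167 genes of splicing and RNA binding, 22 were lower at an unadjusted p under 0.05 and 5 higher (16.2% in all), 43 were above 0, and the median was -0.06. Among the 22 were many SR proteins, which bind exons and recruit the spliceosome: srsf1a, srsf2, srsf3, srsf5, srsf5b, srsf7, srsf9 and srsf11, with srrm1, sf3b1 and prpf39. srsf7 was at 220, 267, 275 and 271 CPM in WT and 193, 204, 203 and 223 CPM in atm brains 1 to 4 (log2 fold change -0.33, SE 0.094). WT brain 1 lay between the other WT brains and the mutants, and overlapped atm brain 4. Within females 42 were lower and 9 higher (median -0.17), and within males 2 were lower and 4 higher (median 0.01). Without WT brains 3 and 4, 4 were lower and 0 higher, and without atm brain 1 and WT brain 1, 23 were lower and 2 higher.

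Of 207 chromatin regulators, 13 were lower and 3 higher, and 9 lay wholly below WT. The 16 are 7.73% of the list, under the share of all genes, and the median was -0.03. Within females 19 were lower and 15 higher, within males 4 and 3, and without WT brains 3 and 4, 5 and 0. The lower ones include phf11 (38.9 to 42.8 CPM in WT, 30.9 to 34.9 CPM in the mutants), the histone demethylases phf8, kdm1a, kdm2bb and kdm5bb, and the sirtuins sirt2 and sirt7. Of 84 RCC1-repeat and BTB adaptor genes, 8 were lower and 1 higher (10.7%), with 7 wholly below WT, among them cul1, cul4a, kctd1 and kctd6 beside rcbtb2 and kbtbd4. The list was built around rcbtb2, so its count includes a gene chosen for its fall.

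Around lpar6a, genes of lysophospholipid signalling went both ways. Of 39 tested, 3 were higher (lpar1, gna12 and spns2) and 2 lower (lpar6a and plppr1), 12.8% against 8.79% of all genes, and the median was 0.06. This count includes lpar6a itself, which was known to fall when the list was chosen. lpar1 encodes another receptor of lysophosphatidic acid that in mammals is abundant in myelinating cells. It was at 9.54, 8.01, 7.54 and 8.29 CPM in WT and 13.3, 14.1, 13.6 and 10.5 CPM in the mutants (log2 fold change 0.62, SE 0.149). gna12, a G protein alpha subunit to which such receptors couple, was at 31.0 to 41.4 CPM in WT and 37.4 to 52.4 CPM in the mutants (0.43, SE 0.119). So the transcripts of the receptors lpar6a and lpar1 lay on opposite sides of WT in all 4 mutants.

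Of 53 genes of the integrated stress and unfolded protein responses, 4 were lower and 0 higher, 7.55% against 8.79% of all genes. The 4 are the transcription factors atf5a, atf4b, atf5b and ddit3 (CHOP). atf4b was at 256, 224, 216 and 247 CPM in WT and 194, 186, 173 and 204 CPM in the mutants (log2 fold change -0.32, SE 0.083). atf5a was at 47.1 to 50.9 CPM in WT and 34.4 to 43.7 CPM in the mutants (-0.35, SE 0.078). The list as a whole had a median of 0.00 with 28 of 53 above 0. Without WT brains 3 and 4 the count was 4 lower and 0 higher, and without atm brain 1 and WT brain 1 it was 4 lower and 2 higher. Within females 4 were lower and 1 higher, and within males 4 and 2. Heat shock and chaperone genes went both ways (4 higher and 3 lower of 99, 7.07%), with hsf1 at -0.20 and the glucocorticoid-responsive fkbp5 at 35.5 to 65.8 CPM in WT and 70.6 to 138 CPM in the mutants (0.90, SE 0.366).

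Few immune genes had an unadjusted p under 0.05, though more of them lay above 0 than below. Of 38 genes of cytosolic DNA sensing and the interferon response, 0 were higher at an unadjusted p under 0.05 and 1 was lower (2.63%), irf5, an interferon regulatory factor, at 70.1 to 77.3 CPM in WT and 52.5 to 56.8 CPM in the mutants (log2 fold change -0.43, SE 0.134). The median of the list was 0.06. Among 77 NF-kB and cytokine genes 4 were higher and 1 lower (6.49%), among them the Toll-like receptors tlr3 and tlr18, both low in level and without overlap (tlr3 at 0.663 to 1.09 CPM in WT and 1.25 to 1.46 CPM in the mutants). Microglia and macrophage markers summed to 199 to 242 CPM in WT and 213 to 285 CPM in the mutants, with 1 of 15 genes higher (csf1r).

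Among neuronal genes, the 18 pan-neuronal markers had a median of 0.00 with 0 higher and 0 lower. Of 143 transmitter receptors 8 were higher and 2 lower (6.99%), of 146 synaptic genes 8 and 5 (8.90%), and of 185 ion channels 7 and 5 (6.49%), all with medians of 0.01 to 0.02. Of 40 genes of transmitter synthesis and transport 5 were higher and 1 lower (15%), with a median of 0.09 and 27 above 0. These counts depended on the libraries used, as did those of all genes. Without atm brain 1 and WT brain 1, receptors gave 4 higher and 17 lower, channels 9 and 20, and synaptic genes 5 and 10. Within females channels gave 31 higher and 5 lower, and within males 2 and 8. Named members include the NMDA receptor subunit grin2ab (log2 fold change 0.43), the AMPA receptor subunit gria2 (-0.23), and kcnj10a, the inward rectifier Kir4.1 of glia. kcnj10a was at 45.7, 43.2, 27.3 and 29.7 CPM in WT and 62.6, 73.3, 60.6 and 46.5 CPM in the mutants (0.75, SE 0.177). Markers of Purkinje and granule cells, the cells lost in ataxia telangiectasia, had 1 higher (homer3) and 1 lower (barhl2) of 31 and a median of -0.17, with 6 above 0. The granule cell genes were low in single libraries of both genotypes: neurod1 was at 218, 390, 413 and 410 CPM in WT and 399, 99.3, 184 and 374 CPM in atm brains 1 to 4. Without atm brain 1 and WT brain 1, 12 of the 31 were lower at an unadjusted p under 0.05. That pair was left out for its pituitary level. It holds the WT brain with the lowest neurod1 and the mutant with the highest, so this count cannot be read as a loss of these cells.

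Surface, matrix and transport lists held more higher than lower genes with all 8 libraries; without WT brains 3 and 4 this turned for axon guidance and matrix genes. Axon guidance and cadherin genes gave 13 higher and 0 lower of 145 (8.97%), with efna1b, pcdhb, sema4b and nfascb among them. Collagen, laminin and integrin matrix genes gave 16 higher and 5 lower of 154 (13.6%), with a median of 0.03. Solute carriers gave 29 and 12 of 289 (14.2%), led by slc41a1 (a magnesium transporter), the glucose transporter slc2a3b and the carnitine transporter slc22a5. slc2a3b was at 61.2 to 67.8 CPM in WT and 76.9 to 101 CPM in the mutants (log2 fold change 0.45, SE 0.111). The perineuronal net components bcan and acan lay wholly above WT, bcan at 211 to 285 CPM against 308 to 348 CPM and acan at a mean of 56.3 CPM against 84.3 CPM (log2 fold change 0.59, SE 0.199). Without WT brains 3 and 4, axon guidance and cadherin genes gave 2 higher and 8 lower, matrix genes 1 and 18, and solute carriers 5 and 3. Without atm brain 1 and WT brain 1 these counts were 11 and 7, 23 and 2, and 33 and 13.

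Ribosomal and respiratory gene lists had medians near 0 that differed in sign between females and males. Cytosolic ribosomal protein genes were above 0 in 1 of 83 cases, with a median of -0.06, and 0 had an unadjusted p under 0.05; their mean log2 CPM was 8.08 in WT brain 2 and 8.56 to 8.68 in the other WT brains, and 8.37 to 8.53 in the mutants. The 13 mitochondrially encoded genes had a median of -0.04 (-0.28 in females and 0.19 in males), the 101 nuclear respiratory chain genes -0.05 (-0.21 and 0.13), and the 77 mitochondrial ribosomal proteins -0.04 (-0.22 and 0.16). In glycolysis and the citrate cycle 3 were higher and 5 lower of 67 (11.9%); the lower eno3, aldoab and pfkma are genes of the muscle isoforms and were highest in WT brain 1, as the muscle markers were, and the part of muscle was not tested.

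**Figure D5:**
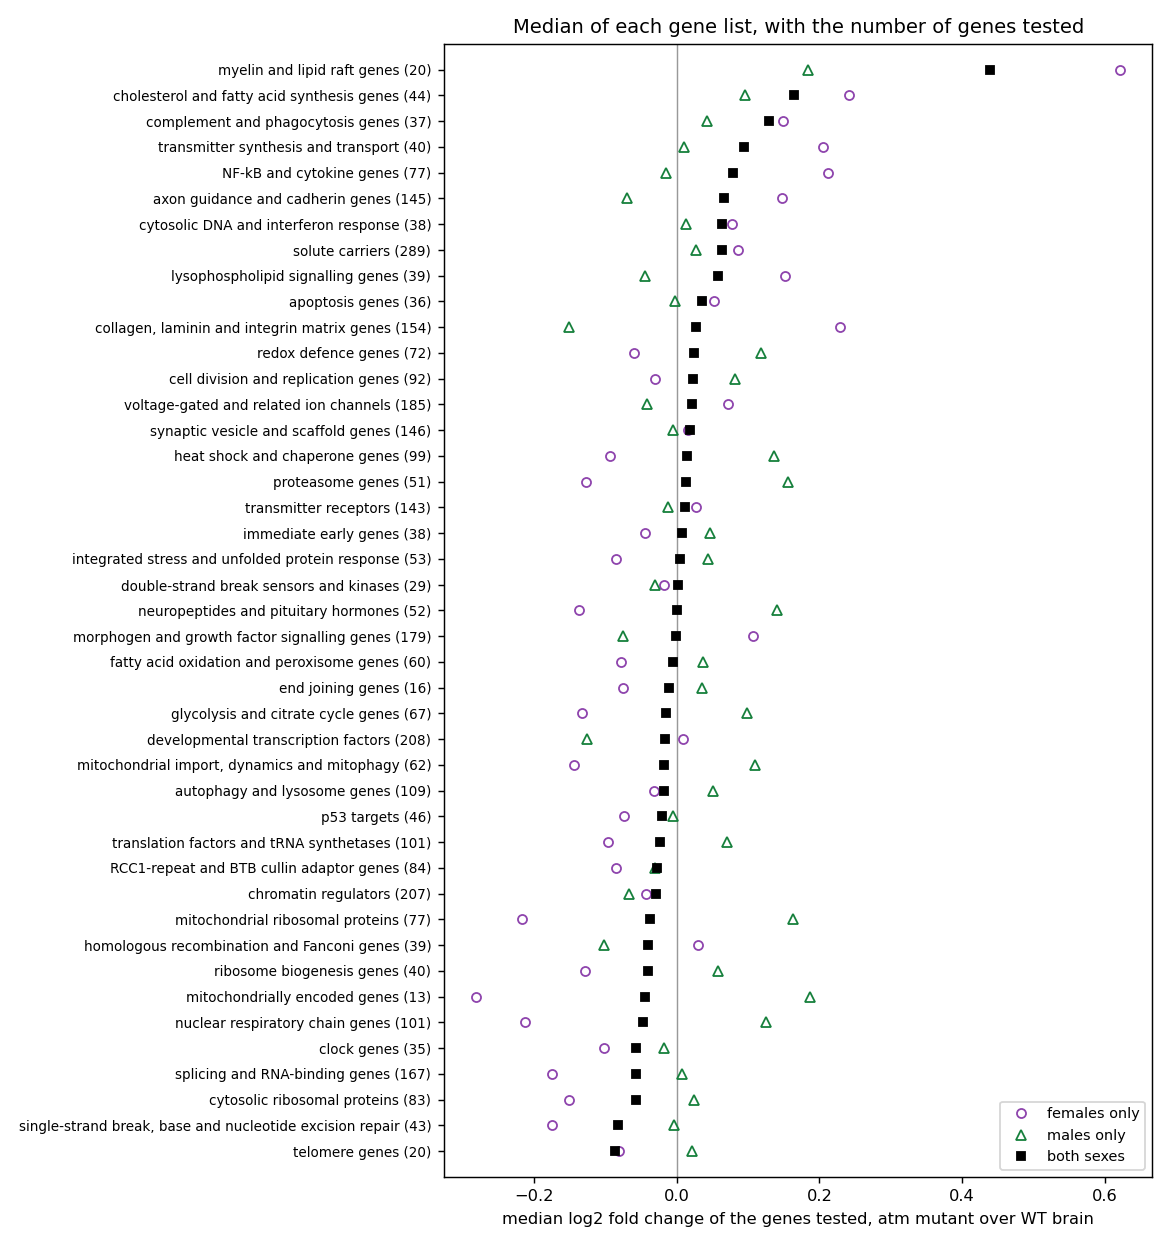
Median log2 fold change (atm mutant over WT brain) of the genes tested in each of 43 lists, for both sexes (squares), females (circles) and males (triangles). The myelin list lies at 0.44 and the sterol list at 0.16, while ribosomal and respiratory lists lie on opposite sides of 0 in females and males.

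The atm effect was then compared between the sexes. In females 3553 genes (17.5%) had an unadjusted p under 0.05 and 8 passed adjustment (0.0395%), and in males 944 (4.66%) and 0. Of the 8, rcbtb2 was lower, and 7 were higher: slc41a1, lamc3, kcnj10a, gdf11, akap13, tmem86a and si:ch73-352p4.8. In these 7 the WT females were the low libraries. The laminin gene lamc3 was at 2.43 and 2.02 CPM in WT brains 3 and 4, at 6.71 and 5.76 CPM in the WT males, and at 6.39 to 7.42 CPM in the 4 mutants. gdf11, a growth factor of the TGF-beta family, was at 15.67 and 14.98 CPM in the WT females and 27.6 to 33.9 CPM in the other 6 brains.

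The difference between the sexes was tested directly with the interaction term, and 0 of 20273 genes passed (0%), with 2664 (13.1%) at an unadjusted p under 0.05 and a lowest adjusted p of 0.294. DESeq2 passed 143 genes on the same 12 libraries and edgeR 142 on the 8 libraries alone, 58 of them in common; in 112 and 127 of these the atm mutant to WT fold was higher in females. The WT females had 39277517 and 33628109 counts and the WT males 20891227 and 18972020, so sex and depth cannot be told apart among WT. Matrix genes illustrate the contrast: of 154 collagen, laminin, integrin and related genes, 32 were higher and 1 lower at an unadjusted p under 0.05 in females, and 2 higher and 16 lower in males. The 154 matrix genes summed to 8464 CPM in WT brain 1, a male, and to 3592 to 5096 CPM in the other 7 brains. Among them col1a1a was at 1282 CPM in WT brain 1, 311 CPM in atm brain 4 and 18.8 to 105 CPM in the other 6.

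The double mutants are labelled as mutant for both atm and cgas, and were compared with the same 4 WT brains, so the comparisons are not independent. lpar6a was at 7.61, 8.60, 8.12 and 13.8 CPM in double mutant brains 1 to 4 (log2 fold change -1.09, SE 0.173, edgeR adjusted p = 0.348). rcbtb2 was at 21.3, 22.7, 21.6 and 27.1 CPM (-0.79, SE 0.091, adjusted p = 0.0283) and was the 1 gene that passed there (0.00493%), with 1094 (5.4%) at an unadjusted p under 0.05. Double mutant brain 4 had the highest level of both, and its summed microglia and macrophage markers were 826 CPM against 228 to 277 CPM in the other double mutants. The median of the myelin list was 0.26 and that of the clock genes 0.01.

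In liver, 3 atm mutants and 4 WT fish were compared in the same way. Of the mutants, livers 1 and 2 were female and 4 male. WT livers 1 and 2 were male and 3 and 4 female. Of 16174 genes tested, 0 passed (0%) by edgeR, with 1621 at an unadjusted p under 0.05 (10%), and DESeq2 passed 127. In liver lpar6a differed by 0.23 (SE 0.186) and rcbtb2 by 0.14 (SE 0.230), while atm differed by -0.58 (SE 0.329). The difference between tissues was not tested for these genes. Of the 24 genes named in brain, 20 could be tested in liver, and 10 of them had the same sign there. An unadjusted p under 0.05 was reached by 5 of the 20, against 10% of all liver genes. Of these, sod3 (0.47), ctgf (0.96) and csgr06h19orf54 (-1.40) had the sign seen in brain. slc41a1 (-1.10) and kbtbd4 (0.33) had the opposite sign.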

How the data were processed

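The 8 brain samples compared were taken at 2 months. The authors deposited raw counts per gene, as whole numbers, for 25099 gene names. Per the submitters' processing notes, the tools were FastQC 0.11.8, Trim Galore 0.6.4, cutadapt 3.4, STAR 2.7.6a and edgeR 3.32.1, with no role given; the genome build, annotation and strand setting are not given in the sources used here. LOC names number 14280, of which 5241 received a symbol from the gene table of NfurGRZ-RIMD1.

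The 12 brain libraries were fitted together with edgeR 4.0.16 in R 4.3.3: filterByExpr, TMM, genotype and sex, robust quasi-likelihood tests, and p-values adjusted by Benjamini-Hochberg, called under 0.05. A model with 1 mean per sex and genotype gave the effects within each sex and the interaction. Log2 CPM were computed with a prior count of 2, and SE come from the test statistic. DESeq2 1.42.0 and other settings are given in the closing section; the code was tested on simulated data. Depth ran from 18972020 to 39277517 counts, which limits low genes most.

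Named genes were those past the threshold, atm, up to 12 per direction with the smallest p among genes with a symbol, a mean log2 CPM of at least 1 and no overlap, and up to 2 members per direction and list; other members are named to show what a count holds. The members of the comparison and the 55 lists were chosen with earlier results of these data known, and 91 list members that belong to other families by name were removed after their values were seen. Some genes are not reported here. Libraries were left out in pairs as alternatives chosen after seeing the data.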

Additional observations from a re-analysis of the deposited data

Results flagged for a closer look

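In groups of 4, a library was singled out where its gap to the nearest other library, as a share of the range of its group, exceeded Dixon's 95% critical value. Of 158 groups examined (the named genes and the list means, in atm mutants and in WT), 6 were marked, and chance marks about 1 in 20. The pituitary list, as mean log2 CPM, was at -2.30 in atm brain 1 against 5.22 to 6.66 in the other mutants, and at -1.13 in WT brain 1 against 5.32 to 5.50 in the other WT brains. Values without these 2 libraries stand beside lpar6a, rcbtb2 and the clock, sterol, myelin, splicing, excision repair, neuronal, matrix and solute carrier lists. The lymphocyte list was at 0.16 in atm brain 1 against -0.12 to -0.07 in the other mutants. Translation factors and tRNA synthetases were at 5.48 in WT brain 2 against 5.64 to 5.67 in the other WT brains. insig1 was at 31.6 CPM in WT brain 2 against 27.9 to 28.3 CPM in the others, and kbtbd4 at 34.4 CPM in WT brain 4 against 32.0 to 32.4 CPM. The first lay toward the mutants without reaching them and the second away from them.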

How the results depend on the processing

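The number of genes past the threshold was 2 with RLE size factors, no filter on low counts, no sex term, the depth range as covariate and without double mutant brain 4, each time lpar6a and rcbtb2. It was 31 with DESeq2 and 4 with the 8 libraries only. Leaving out 1 library at a time gave 1 to 3 genes, 1 or 2 of lpar6a and rcbtb2, log2 fold changes of -1.82 to -1.66 for lpar6a and -0.95 to -0.86 for rcbtb2, and 1 gene (rcbtb2) without atm brain 3. The next 2 settings were chosen after seeing the data. Leaving out WT brains 3 and 4 passed 2 genes, neb and ttn.1, with 0 of lpar6a (-1.66) and rcbtb2 (-0.75). In that fit 820 of 20522 genes had an unadjusted p under 0.05. Skeletal muscle markers had a median of -3.03 there, with 4 lower at that level. The part of muscle in neb and ttn.1 was not tested. Leaving out atm brain 1 and WT brain 1 passed 0 (-1.91 and -0.95), with 2011 at an unadjusted p under 0.05. Within females 8 genes passed, 1 of the pair, with lpar6a at -1.62, and within males 0, with -1.83 and -0.77; the cause of these changes was not tested. For atm, DESeq2 gave -0.51 with an adjusted p of 0.0424. Its exact permutation test kept a difference of -0.59 to -0.44 when 1 library was left out, with p = 0.0571 without atm brain 2 or 3. The interaction with sex passed 143 genes with DESeq2, 142 with the 8 libraries only, and 0 to 1 when 1 library was left out (LOC107395922 without atm brain 2). In liver, 0 of the genes named in brain passed in any setting, also when 1 library was left out.

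With the replicate number as a block, 2 genes passed in brain (lpar6a -1.72, rcbtb2 -0.89), and the interaction and the liver comparison gave 0. With 4 pairs it cannot be settled whether the numbers pair the samples. Deviations of same-numbered atm mutant and WT brains, always of opposite sex, had correlations of 0.09, -0.09, 0.04 and 0.22. Of the 4 mutants, 2 correlated best with their own number. Of 2124 values of 118 named genes, in settings other than the fits within 1 sex, 12 passed under DESeq2 only and 0 reversed. Within 1 sex signs could differ: homer3 was at -0.01 in males against 0.29 with both sexes. Of 990 list medians, again without the fits within 1 sex, 41 moved by more than the SD between libraries. Of these, 19 were without WT brains 3 and 4.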

Other observations

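Families that the account above does not describe gave these values in atm mutant against WT brain. Of 208 developmental transcription factors, 12 were lower at an unadjusted p under 0.05 and 4 higher, 7.69% against 8.79% of all genes. The counts varied with the libraries: 18 higher and 3 lower in females, 0 and 12 in males, 0 and 15 without WT brains 3 and 4, and 24 and 19 without atm brain 1 and WT brain 1. The higher ones were sox10, nkx6-2 and olig2, which specify oligodendrocytes, and onecut2, and the lower ones included the patterning and neuronal factors barhl2, pou4f1, lhx9, pax3a, LOC107376060 (otx1), irx3 and irx5. ppargc1b, a coactivator of mitochondrial genes, had a log2 fold change of 0.40 (SE 0.141). Genes of mitochondrial import and dynamics gave 1 higher and 6 lower of 62 (11.3%). Among them were mfn1 and mff, which fuse and divide mitochondria, and the transcription factors nrf1 and gabpa. Without WT brains 3 and 4, 1 was higher and 1 lower. Within females 0 were higher and 7 lower (median -0.14), and within males 4 and 3 (median 0.11).

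Of 109 autophagy and lysosome genes, 2 were higher and 4 lower (5.50%), under the share of all genes: lamp2 (114 to 127 CPM in WT, 133 to 143 CPM in the mutants) and npc1 of the lysosomal membrane were higher, and atg9a, atg9b, atg2b and mcoln1 were lower. Among immediate early genes, fosb was at 16.8 and 21.1 CPM in the WT males, 32.1 and 34.1 CPM in the WT females and 29.5, 36.8, 52.8 and 37.2 CPM in atm brains 1 to 4. Proteasome genes had a median of 0.01, with -0.13 in females and 0.16 in males.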
